A study of Homo sapiens with 6 samples.

Results

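The genes described here are 42 genes of the lysosome and of autophagy, among 20263 gene IDs in a table of raw counts. They comprise 3 transcription factors of the MiT/TFE family, 16 lysosomal hydrolases and their activators, 5 lysosomal membrane proteins, 4 subunits of the proton pump and 14 autophagy genes. The members were chosen by function and by symbol, with earlier results of the same data known: TFE3 was known to be low in the wild-type library and TPP1 was known as a marker of the set. All 42 were in the table, and 41 of them passed the filter on low counts. CTSZ, which encodes the carboxypeptidase cathepsin Z, had 2 to 9 counts per library and was not tested.

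RNA sequencing was done on U118, an established human glioma cell line, at day 2 of an siRNA experiment aimed at RIPK2, a kinase that signals downstream of the NOD receptors. There was 1 library of wild-type cells (WT), 1 of cells with the control siRNA (siNC) and 4 of cells with siRNA to RIPK2 (siRIPK2_1 to siRIPK2_4). All cells were grown in DMEM with serum and antibiotics. The labels do not say whether WT cells received transfection reagent, nor whether the 4 siRIPK2 libraries are different siRNAs, separate cultures or repeats, so p-values measure the spread among these libraries alone, and that spread may be technical. In these bulk samples, fewer cells of a type and less RNA per cell cannot be told apart.

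The lysosome is the acid compartment in which proteins, lipids, glycans and nucleic acids are broken down. Its hydrolases work at low pH, which a proton pump in its membrane maintains, and autophagy delivers parts of the cytoplasm to it inside autophagosomes. TFEB, TFE3 and MITF bind short E-box elements in promoters of lysosomal and autophagy genes. They are held in the cytoplasm when mTORC1 phosphorylates them and enter the nucleus on starvation or lysosomal stress, so their mRNA level does not measure their activity.

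RIPK2 mRNA was 56.8 CPM (counts scaled by library size with TMM factors) in WT and 43.4 in siNC. The siRIPK2_1 to siRIPK2_4 libraries had 3.86, 11.9, 6.27 and 4.32 CPM, on average 6.58 ± 3.67 (SD, n = 4) or 15.1% of siNC. All 4 siRIPK2 libraries were below both controls (log2 fold change -2.72, SE 0.53, unadjusted p = 0.000946 and adjusted p = 0.972 by edgeR's quasi-likelihood test). Total counts ranged from 33540619 to 45309423 per library, and a level of 3 counts, taken as the detection floor, was 0.0662 to 0.0894 CPM, a limit for counting error only. The label names the cells a human brain astroblastoma line. Of 9 astrocyte and glioma markers, VIM (3813 to 7572 CPM), CD44 (224 to 556), SOX9 (47.5 to 122), NES (18.5 to 73.1) and SLC1A3 (3.52 to 13.1 CPM) were detected in every library. GFAP was low, at 0.53 to 1.09 CPM, but above the floor in every library. CHI3L1 (0.06 to 0.44 CPM), S100B (0 counts in 5 of 6 libraries) and AQP4 (0 counts in all 6) were at or near 0. Of 11 markers of macrophages and microglia, cells rich in lysosomes, 5 had 0 counts in all 6 libraries (AIF1, C1QA, C1QB, TYROBP and FCGR3A). Their summed level was 3.41 CPM in WT, 6.95 in siNC and 2.72 to 4.92 in the siRIPK2 libraries.

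Most of these genes were well expressed. In every library 31 of the 42 members were at 30 CPM or more, and 3 were under 5 CPM in every library (TFEB, CTSK and CTSZ). Levels of different genes were compared as CPM per kb of exon, averaged over the 6 libraries. Hydrolases headed this order. PSAP, the precursor of the saposins that help to degrade sphingolipids, stood at 359 CPM per kb (265 to 473), followed by the aspartic protease CTSD at 338 and the cysteine protease CTSL at 241. The tetraspanin CD63 came next at 224, then the autophagy receptor SQSTM1 (p62) at 142 and the cysteine protease CTSB at 132. The range of CTSD over the libraries overlapped those of PSAP, CTSL and CD63, and those of CTSL and PSAP overlapped too. The order among these genes therefore does not exceed the spread, except that CD63 (at most 252) lay below PSAP (at least 265). SQSTM1 and CTSB overlapped each other and lay below these 4 in range. TFE3 was 11th at 34.1 CPM per kb, ahead of many of the hydrolases. Length here is the union of all annotated exons, 4283 bases for TFE3 and 15378 for ASAH1, and the order depends on it. In CPM without length, TPP1 averaged 180 and HEXA 147 against 146 for TFE3. The other hydrolases ranked behind TFE3 were also below it in CPM. At the low end were GABARAPL1 (1.66), MITF (1.30), CTSK (1.15), TFEB (0.41) and CTSZ (0.06 CPM per kb).

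**Figure D1:**
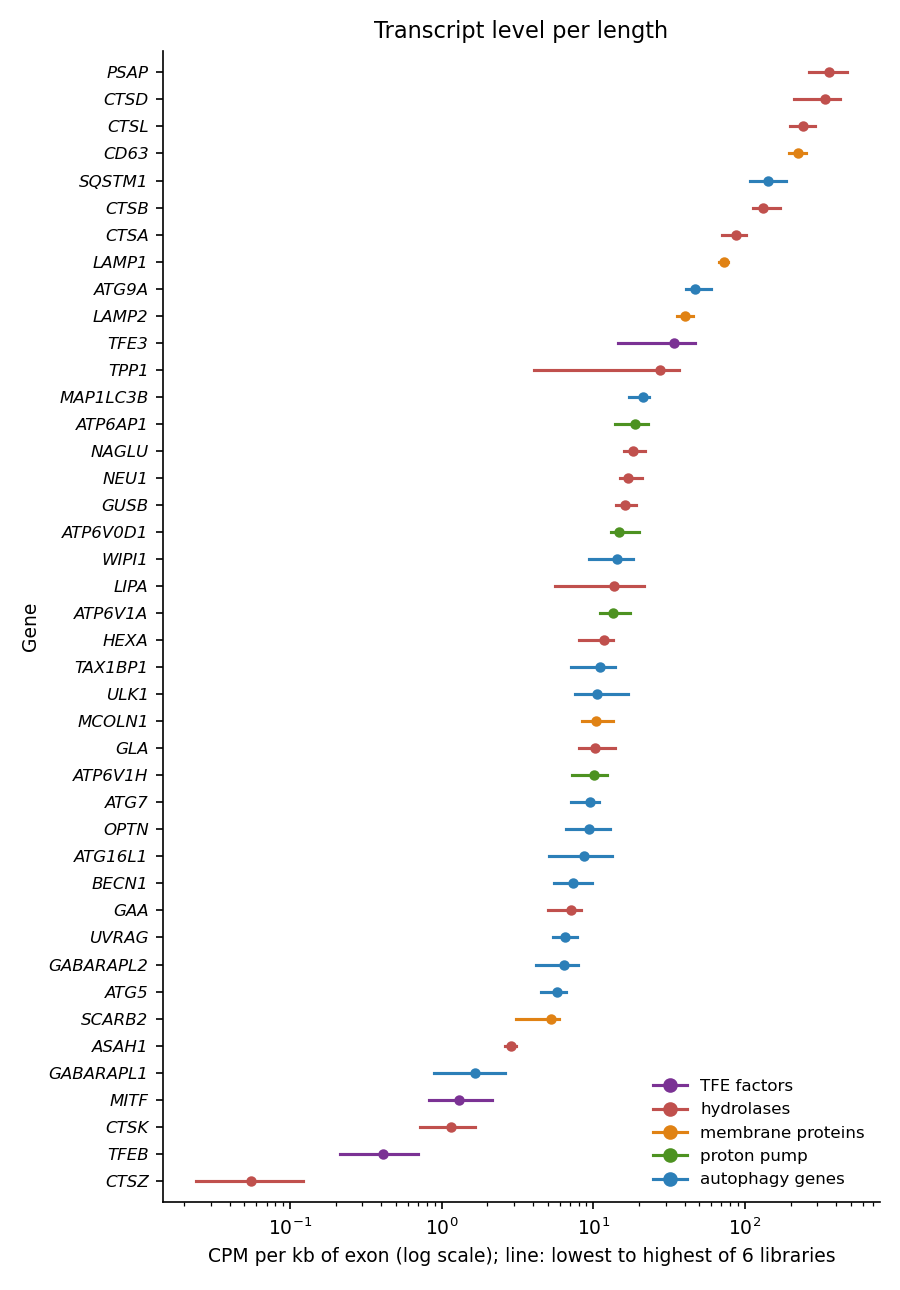
Mean level of each of the 42 genes in CPM per kb of exon on a log axis, with a line from the lowest to the highest of the 6 libraries and colours for the role groups. PSAP and CTSD head the order at 359 and 338, TFE3 stands at 34.1 with a line down to 14.6 for WT, and TPP1 has the longest line among the well-expressed genes.

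Among the MiT/TFE factors, TFE3 carried nearly all of the transcripts. The gene lies at chrX:49028726-49043486 on the minus strand (GRCh38). Its level was 62.4 CPM in WT, 150 in siNC and 140, 169, 201 and 154 across siRIPK2_1 to siRIPK2_4. WT was thus below all 5 other libraries, which averaged 2.61 times its level (log2 ratio of WT to the others -1.38), while siNC lay inside the range of the siRIPK2 libraries. These values rest on 2247 counts in WT and 4827 to 9079 in the others. Of 10674 genes with a mean of at least 5 CPM, TFE3 ranked as the 43rd lowest in WT against the rest. This is the contrast that was known when the genes were chosen, so it is given as a description without a test. Between siRIPK2 and siNC, which the choice did not use, TFE3 differed by a log2 fold change of 0.14 (SE 0.31, unadjusted p = 0.660 by edgeR), less than the spread between libraries.

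TFEB, the best-known regulator of lysosomal genes, was at 2.39 CPM in WT, 2.46 in siNC and 3.93, 2.11, 1.20 and 1.76 across siRIPK2_1 to siRIPK2_4. Both controls lay within the siRIPK2 range. MITF, the melanocyte master regulator of the same family, was at 7.77 CPM in WT and 6.58 in siNC. In siRIPK2_1 to siRIPK2_4 it was 5.93, 15.4, 12.9 and 7.20 CPM, so that siRIPK2_2 and siRIPK2_3 stood above the controls and siRIPK2_1 below them (log2 fold change 0.66, SE 0.60, unadjusted p = 0.305 by edgeR). Per length, TFE3 made up 90.6% of the summed level of the 3 factors in WT, 96.3% in siNC and 94.0% to 96.5% in the siRIPK2 libraries. WT's lower TFE3 therefore stood beside TFEB and MITF levels inside the range of the other libraries.

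**Figure D2:**
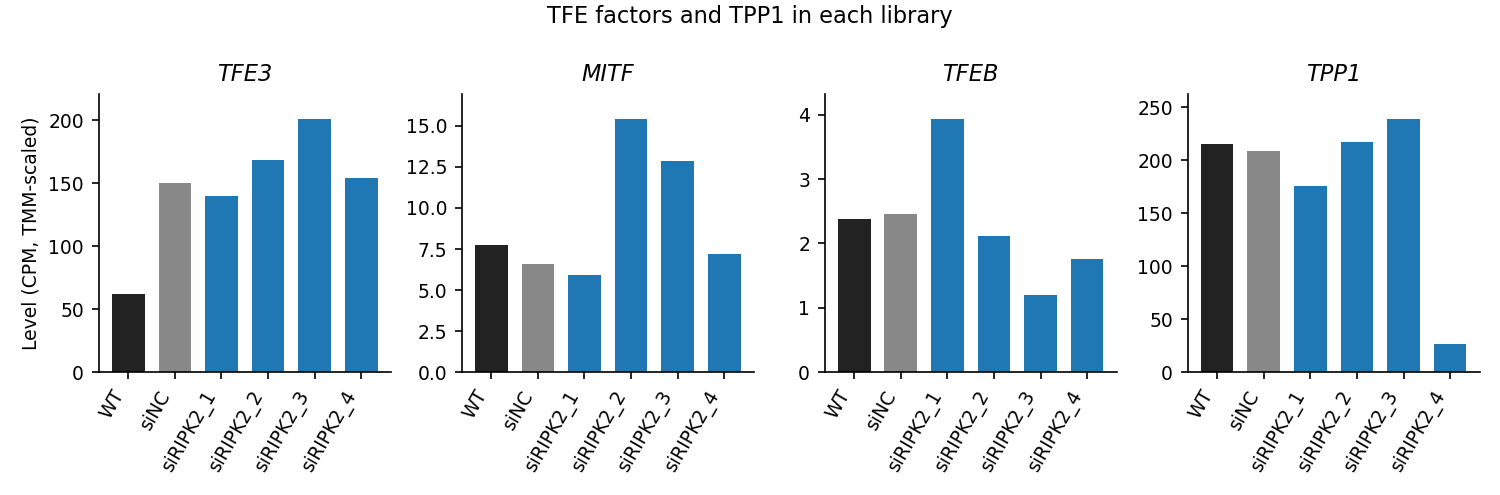
Level in CPM of TFE3, MITF, TFEB and TPP1 in each of the 6 libraries, 1 bar per library. TFE3 is lowest in WT at 62.4 CPM against 140 to 201 elsewhere, and TPP1 is lowest in siRIPK2_4 at 26.4 CPM against 176 to 239 elsewhere.

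One DNA element of these factors is the E-box CACGTG, and its extended form TCACGTGA is the core of the motif shared by many lysosomal promoters. Both read the same on either strand, and every TCACGTGA also holds a CACGTG. They were searched in RefSeq promoter windows from 250 bases before to 50 bases after a gene's start (GRCh38.p14), which matched 32 of the 42 genes by symbol. CACGTG occurred in a window of 8 of the 32 (25%), beside 12.2% of the 11342 tested genes with a window and 7.26% of all 35116 windows. By role it was found in 4 of 10 hydrolases (CTSA, CTSD, GAA and NEU1), 3 of 4 membrane proteins (LAMP1, CD63 and MCOLN1), 1 of 2 pump subunits (ATP6V0D1), 0 of 13 autophagy genes and 0 of the 3 factors. TCACGTGA occurred in 5 of the 32 (15.6%), against 2.12% of tested genes with a window, namely CTSA, GAA, LAMP1, MCOLN1 and ATP6V0D1. A match describes these letters only and is not a measured binding site. No other form of the element was searched, so a window without a match may still hold a site for these factors.

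These 5 promoters, with TPP1 as the hydrolase that varied most between libraries and has no CACGTG in its window, are shown 5′ to 3′ on the gene's own strand, ending at the base before the RefSeq start. Capitals mark CACGTG only, and any other element is unmarked. The stretch before the LAMP1 start is longer because its CACGTG elements are repeated.
GAA, chr17:80101481-80101580, plus strand: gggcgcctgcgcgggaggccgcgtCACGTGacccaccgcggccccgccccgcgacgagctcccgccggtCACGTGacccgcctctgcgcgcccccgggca
CTSA, chr20:45891235-45891334, plus strand: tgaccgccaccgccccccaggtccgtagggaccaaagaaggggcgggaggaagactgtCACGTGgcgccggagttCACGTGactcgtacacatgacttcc
MCOLN1, chr19:7522524-7522623, plus strand: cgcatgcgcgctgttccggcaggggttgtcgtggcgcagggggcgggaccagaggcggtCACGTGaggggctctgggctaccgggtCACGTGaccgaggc
LAMP1, chr13:113297039-113297238, plus strand: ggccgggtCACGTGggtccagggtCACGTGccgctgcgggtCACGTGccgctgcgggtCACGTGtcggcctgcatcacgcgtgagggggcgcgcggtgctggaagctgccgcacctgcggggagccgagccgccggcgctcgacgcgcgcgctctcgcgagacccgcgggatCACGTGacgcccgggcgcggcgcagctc
ATP6V0D1, chr16:67481158-67481257, minus strand: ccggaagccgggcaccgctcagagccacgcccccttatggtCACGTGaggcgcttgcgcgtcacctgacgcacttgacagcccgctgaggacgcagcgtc
TPP1, chr11:6619423-6619522, minus strand: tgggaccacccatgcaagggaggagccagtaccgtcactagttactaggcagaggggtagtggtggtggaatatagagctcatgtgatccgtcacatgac
GAA, CTSA and MCOLN1 each show a pair of CACGTG elements in 100 bases. LAMP1 shows 5 in 200 bases, and ATP6V0D1 shows 1.

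TPP1 varied most between libraries of the tested members. The gene, at chr11:6612763-6619485 on the minus strand (GRCh38), encodes the hydrolase tripeptidyl peptidase 1, whose loss causes a neuronal ceroid lipofuscinosis. Its level was 215 CPM in WT, 209 in siNC and 176, 217, 239 and 26.4 across siRIPK2_1 to siRIPK2_4. The last library stood far below the other 5, siRIPK2_1 to siRIPK2_3 among them. The count was 961 in siRIPK2_4 and 6702 to 10797 elsewhere. The log2 ratio of siRIPK2_4 to the mean of the other 5 was -3.00, the 18th lowest of the 10674 genes with at least 5 CPM. The group contrast with siNC gave a log2 fold change of -0.34 (SE 0.88, unadjusted p = 0.706 by edgeR), and 0.01 without siRIPK2_4. Since 1 library decides this value, it is no measure of the siRIPK2 group.

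Cathepsins were the most abundant proteases. CTSB was 1266 CPM in WT, 1105 in siNC and 857, 1000, 837 and 837 across siRIPK2_1 to siRIPK2_4. WT was the highest library and all 4 siRIPK2 libraries were below both controls, yet the log2 fold change from siNC was -0.32 (SE 0.25, unadjusted p = 0.234 by edgeR). CTSD was 1327 CPM in WT, 1232 in siNC and 947, 1278, 892 and 663 across siRIPK2_1 to siRIPK2_4. WT was again highest and siRIPK2_4 lowest, while siRIPK2_2 lay between the controls. CTSA, the protective protein of NEU1 and GLB1, was 518 CPM in WT, 599 in siNC and 479, 531, 522 and 412 across siRIPK2_1 to siRIPK2_4. siNC was highest there, and all 4 siRIPK2 libraries were below it (log2 fold change -0.30, SE 0.27, unadjusted p = 0.296 by edgeR). CTSL went the other way, with 470 CPM in siNC and 471 to 688 in the siRIPK2 libraries, the lowest of which was within 2 CPM of siNC. CTSK, the collagen-degrading cathepsin of osteoclasts, was low in every library (1.35 to 3.13 CPM).

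Most glycosidases and lipid enzymes varied by less than the 1.97-fold range of the median gene, with LIPA above it at 3.86-fold. NEU1, the lysosomal sialidase, was 73.4 CPM in WT, 102 in siNC and 80.8, 85.5, 77.4 and 72.7 across siRIPK2_1 to siRIPK2_4. All 4 siRIPK2 libraries were below siNC but 3 of them were above WT (log2 fold change from siNC -0.36, SE 0.27, unadjusted p = 0.220 by edgeR). GAA, the acid alpha-glucosidase lost in Pompe disease, was 42.8 CPM in WT, 40.7 in siNC and 25.9, 40.5, 32.6 and 39.5 across siRIPK2_1 to siRIPK2_4. WT was highest, by a margin of about 2 CPM over siNC. GUSB and HEXA, which cut glucuronides and the ganglioside GM2, were also lower in all 4 siRIPK2 libraries than in siNC, with means of 62.1 ± 4.50 against 76.6 CPM and 137 ± 25.2 against 171 CPM. ASAH1, the acid ceramidase, ranged only from 40.1 to 47.6 CPM and was highest in WT. LIPA, which frees cholesterol from lipoprotein esters, was 84.8 CPM in WT, 89.0 in siNC and 39.7, 58.3, 106 and 27.4 across siRIPK2_1 to siRIPK2_4. Its siRIPK2 libraries lay on both sides of the controls, with siRIPK2_4 again lowest, and its log2 fold change from siNC was -0.62 (SE 0.62, unadjusted p = 0.344 by edgeR). That value was -1.09 without siRIPK2_3 and -0.39 without siRIPK2_4. GLA ranged from 18.3 to 31.8 CPM and NAGLU from 48.1 to 65.4 CPM, both highest in siRIPK2_4.

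The membrane proteins held the steadiest gene of the set. LAMP1, the main glycoprotein of the lysosomal membrane, ranged from 385 to 443 CPM, a 1.15-fold range. LAMP2, its paralogue that also serves in chaperone-mediated autophagy and vesicle fusion, was 250 CPM in WT, 229 in siNC and 208, 196, 197 and 246 across siRIPK2_1 to siRIPK2_4. WT was highest, closely followed by siRIPK2_4 (log2 fold change of siRIPK2 from siNC -0.12, SE 0.28, unadjusted p = 0.685 by edgeR). SCARB2, the receptor that carries glucocerebrosidase to lysosomes, was 112 CPM in both WT and siNC and 104, 107, 115 and 59.9 across siRIPK2_1 to siRIPK2_4. As with TPP1, 5 libraries were alike and siRIPK2_4 was low (log2 ratio to the other 5 of -0.88). MCOLN1, the calcium channel TRPML1, was 39.6 CPM in WT, 53.2 in siNC and 35.8, 48.9, 36.3 and 33.2 across siRIPK2_1 to siRIPK2_4. siNC was highest and WT lay inside the siRIPK2 range (log2 fold change from siNC -0.46, SE 0.32, unadjusted p = 0.187 by edgeR).

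Proton pump subunits did not share a direction in siRIPK2 against siNC. ATP6V0D1, a subunit of the membrane sector, was 107.42 CPM in WT, 113 in siNC and 110, 165, 128 and 107.47 across siRIPK2_1 to siRIPK2_4. WT was nominally lowest, but it and siRIPK2_4 were practically equal. ATP6V1A, the catalytic subunit of the cytosolic sector, was 62.4 CPM in WT, 68.0 in siNC and 77.8, 89.0, 63.9 and 56.9 across siRIPK2_1 to siRIPK2_4, so both controls lay inside the siRIPK2 range. ATP6V1H, another subunit of that sector, ranged from 37.0 to 62.3 CPM. ATP6AP1, an accessory subunit needed for assembly, was 87.2 CPM in WT, 113 in siNC and 104, 68.3, 82.3 and 95.8 across siRIPK2_1 to siRIPK2_4. siNC was highest (log2 fold change -0.36, SE 0.32, unadjusted p = 0.285 by edgeR), and WT lay inside the siRIPK2 range.

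Of the autophagy genes, TAX1BP1 had the lowest p of all members. This cargo receptor, which binds ubiquitinated proteins, was 128 CPM in WT, 65.1 in siNC and 108, 126, 95.6 and 88.7 across siRIPK2_1 to siRIPK2_4. siNC alone was low, and the siRIPK2 mean of 105 ± 16.5 lay below WT (log2 fold change from siNC 0.68, SE 0.32, unadjusted p = 0.0693 by edgeR). BECN1, a subunit of the lipid kinase complex that starts autophagosomes, was 44.96 CPM in WT, 35.3 in siNC and 46.6, 47.2, 63.1 and 44.7 across siRIPK2_1 to siRIPK2_4. Here too siNC was lowest, with WT inside the siRIPK2 range (log2 fold change 0.51, SE 0.33, unadjusted p = 0.165 by edgeR). ATG9A, the lipid scramblase of the membrane vesicles that seed autophagosomes, was 194.45 CPM in WT, 281 in siNC and 233, 214, 194.70 and 205 across siRIPK2_1 to siRIPK2_4. siNC was highest, and WT was lowest by a margin far below the spread of the siRIPK2 libraries (log2 fold change of siRIPK2 from siNC -0.41, SE 0.26, unadjusted p = 0.161 by edgeR).

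MAP1LC3B, whose lipid-linked protein marks autophagosomes, was 124 CPM in WT, 123 in siNC and 96.9, 123, 91.3 and 117.7 across siRIPK2_1 to siRIPK2_4. WT, siNC and siRIPK2_2 were nearly equal at the top. SQSTM1, the receptor that autophagy itself degrades, was 878 CPM in WT, 1172 in siNC and 1033, 1423, 829 and 1179 across siRIPK2_1 to siRIPK2_4, with both controls inside the siRIPK2 range. GABARAPL1, a relative of LC3, varied from 3.61 to 10.8 CPM, the kinase ULK1 from 57.5 to 128 CPM and ATG16L1, which directs LC3 lipidation, from 31.0 to 79.9 CPM. ULK1 and ATG16L1 were both highest in siRIPK2_2 and lowest in siRIPK2_4.

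**Figure D3:**
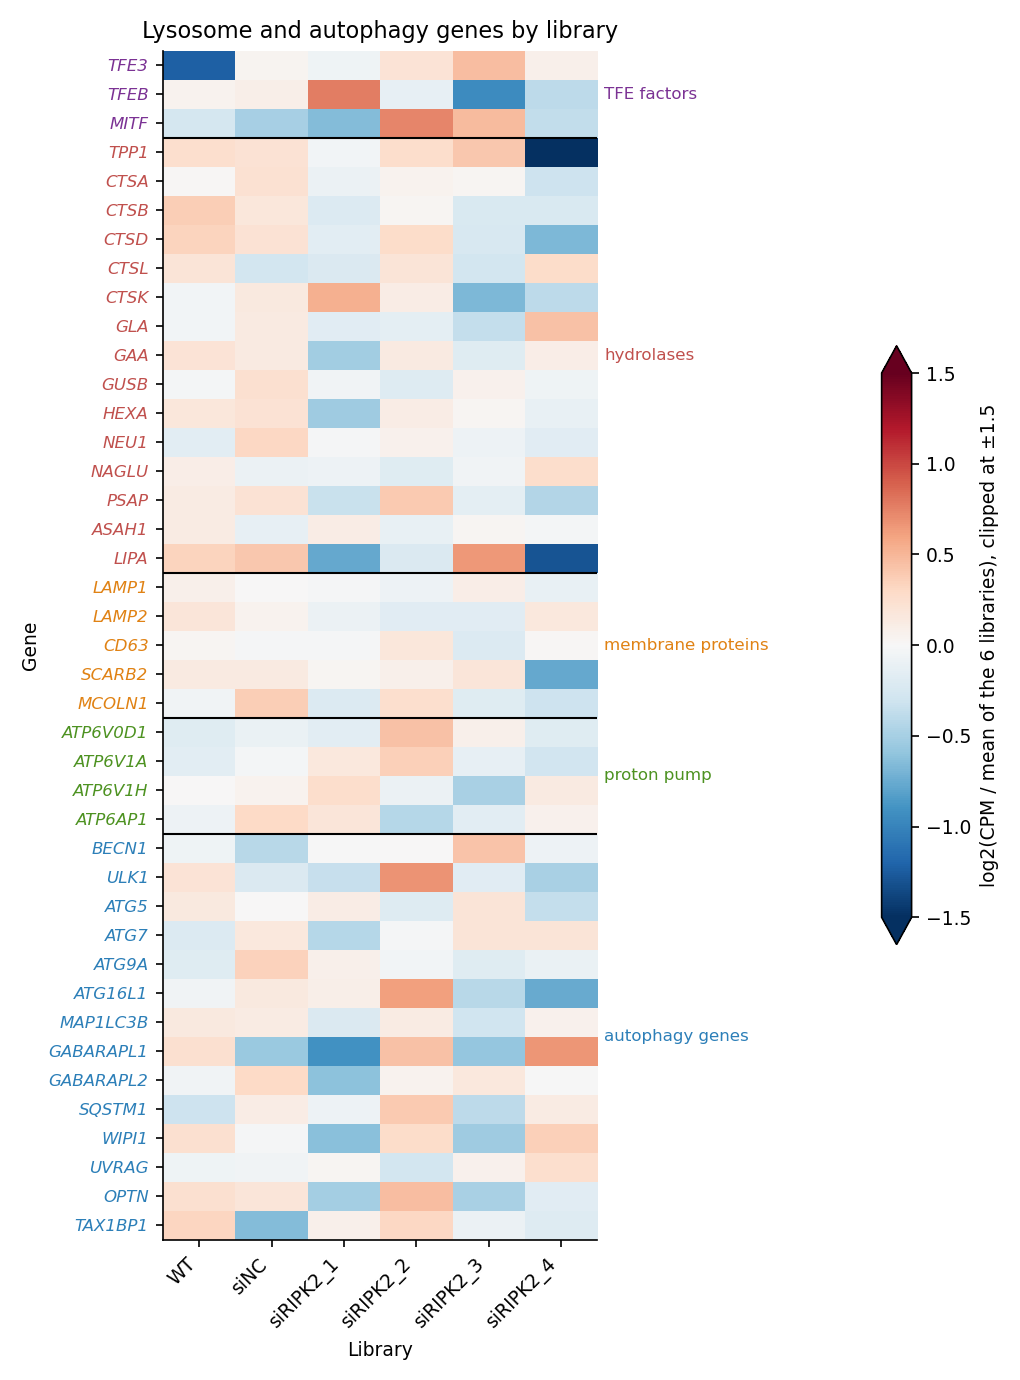
Level of each gene in each library as log2 of its CPM over the mean of the 6 libraries (rows are genes by role, columns are libraries, colours stop at ±1.5), without CTSZ. TFE3 in WT, and TPP1 and LIPA in siRIPK2_4, are the deepest blue cells, and LAMP1 is almost white across its row.

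The question of the siRIPK2 libraries against siNC is whether the knockdown was followed by a change in these genes. No member passed an adjusted p of 0.05 in edgeR's quasi-likelihood test, and none of the 14306 genes did (0%). At an unadjusted p under 0.05 there were 682 genes (4.77%), 509 higher and 173 lower, and 0 of the 41 members. DESeq2 called 74 genes, of which 0 were members, and limma-voom called 0. The members' standard errors were 0.25 to 0.88 on the log2 scale, and their fold changes ran from -0.62 (LIPA) to 0.68 (TAX1BP1), so shifts of this size were not detectable with 1 control library.

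The signs leaned to lower values in siRIPK2. Of the 41 members 28 had a negative log2 fold change (68.3%), with a median of -0.15, while among all genes tested 48.3% were negative and the median was 0.02. All 4 siRIPK2 libraries were below siNC for 11 members, beside 17.3% of all genes. These were 6 hydrolases (CTSA, CTSB, GAA, GUSB, HEXA and NEU1), MCOLN1, ATP6AP1 and 3 autophagy genes (ATG9A, MAP1LC3B and GABARAPL2). All 4 were above siNC for 4 members (CTSL, ASAH1, BECN1 and TAX1BP1), beside 19.3% of all genes. All 4 were below both controls for 4 members (CTSB, GAA, HEXA and MAP1LC3B), beside 5.5% of all genes, and above both for 0, beside 4.96%. For GAA and MAP1LC3B, siRIPK2_2 was practically equal to siNC (40.5 against 40.7 CPM and 122.5 against 122.7 CPM). Because siNC is a single library, a value that was off in siNC cannot be told apart from a difference of the siRIPK2 cells.

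Hydrolases and autophagy genes were then set side by side. In siRIPK2 against siNC, 12 of 15 hydrolases were lower and 3 higher, with a median log2 fold change of -0.30, whereas 9 of 14 autophagy genes were lower and 5 higher, with a median of -0.06. The autophagy median was -0.16 without siRIPK2_2 and -0.0052 without siRIPK2_3. The difference of the medians was -0.24. Taken for each siRIPK2 library against siNC, it was -0.10, -0.38, -0.12 and -0.38 across siRIPK2_1 to siRIPK2_4, with an SD of 0.15. All 4 differences share the siNC library, and their common sign is no independent support. With each library set against the mean of the other 5 instead, the difference was 0.19 for siNC. It was then -0.02, -0.17, 0.11 and -0.16 across siRIPK2_1 to siRIPK2_4, so the siRIPK2 libraries did not share a sign. Against siNC, the hydrolase median was below 0 in every siRIPK2 library (-0.32, -0.10, -0.20 and -0.40). The autophagy median was -0.23, 0.28, -0.08 and -0.03. The membrane proteins had a median of -0.12 (4 of 5 lower; -0.039 without siRIPK2_4), the pump subunits of 0.0048 (2 of 4 lower) and the TFE factors of 0.14 (1 of 3 lower). Members with CACGTG in a promoter window had a median of -0.27 (n = 8) and those without it -0.15 (n = 23). CACGTG was in 0 of 13 autophagy genes and 0 of 3 TFE factors with a window, so motif and role cannot be told apart here.

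**Figure D4:**
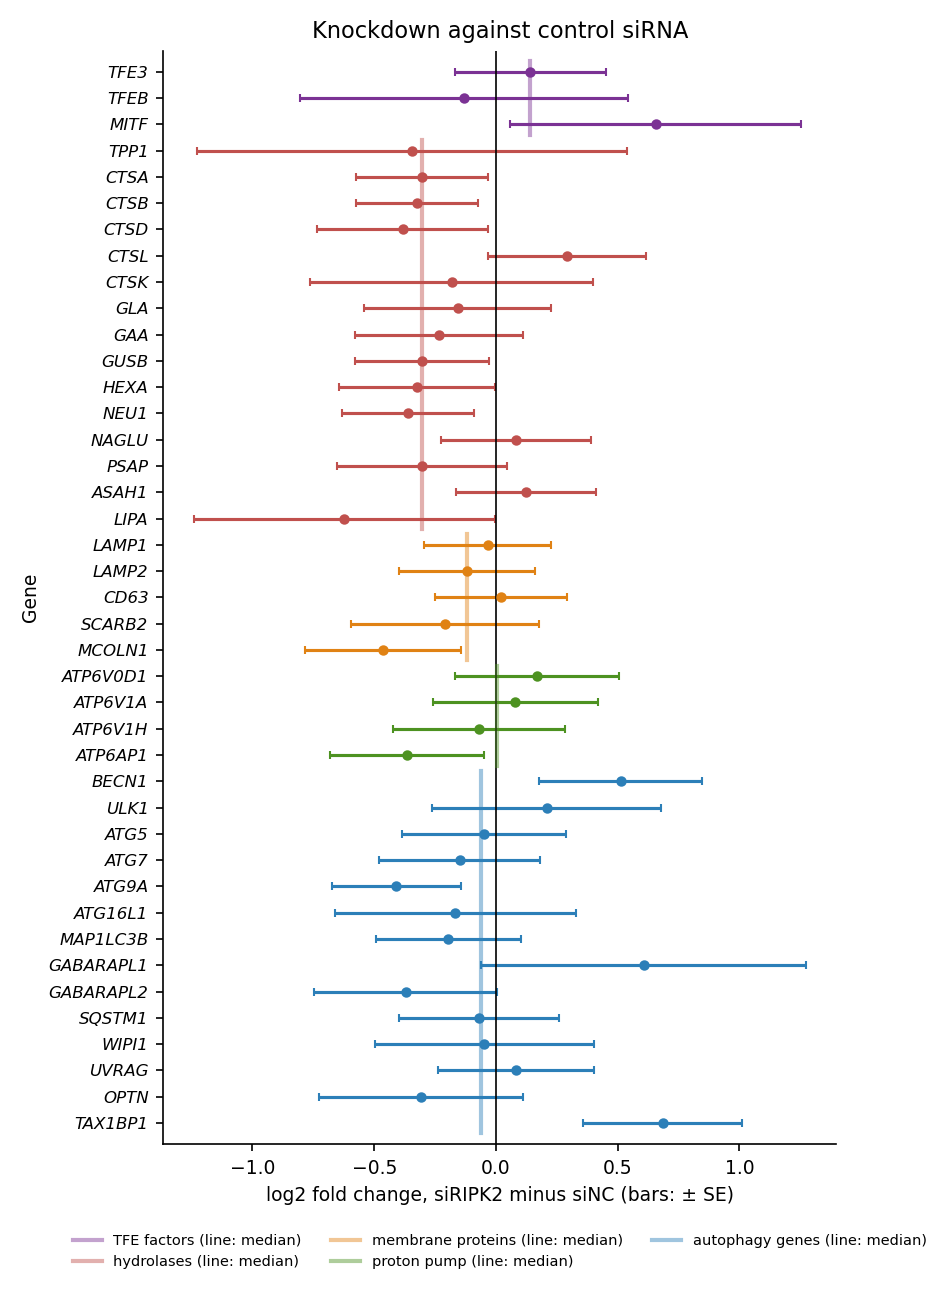
Log2 fold change of siRIPK2 against siNC for the 41 tested genes by role, each with its standard error. Hydrolases lie mostly left of 0 and autophagy genes on both sides, and the bars of most genes reach 0.

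WT, low in TFE3, was not low across the other genes. WT was the lowest library for 3 of 41 members (TFE3, ATP6V0D1 and ATG9A), beside 8.21% of all genes, and the highest for 7 (CTSB, CTSD, GAA, ASAH1, LAMP2, MAP1LC3B and TAX1BP1), beside 9.41%. With scaling by total count alone, TFE3 was the only member lowest in WT, and 5 were highest (CTSB, CTSD, GAA, HEXA and LAMP2). The log2 ratios of WT to the mean of the others had a median of 0.15 for hydrolases (11 of 15 higher), 0.10 for membrane proteins (4 of 5 higher), -0.14 for pump subunits (1 of 4 higher) and 0.06 for autophagy genes (7 of 14 higher). All genes tested had a median of -0.01, and 48.8% of them were higher in WT. The difference of hydrolases minus autophagy genes was 0.09, opposite in sign to that in siRIPK2 against siNC. The siRIPK2 libraries stand on opposite sides of these contrasts, as 4 of the 5 libraries that WT is set against here. The signs are therefore not independent, and the opposite sign is no separate result about WT. No value here is tested, since this contrast was known when the genes were chosen.

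**Figure D5:**
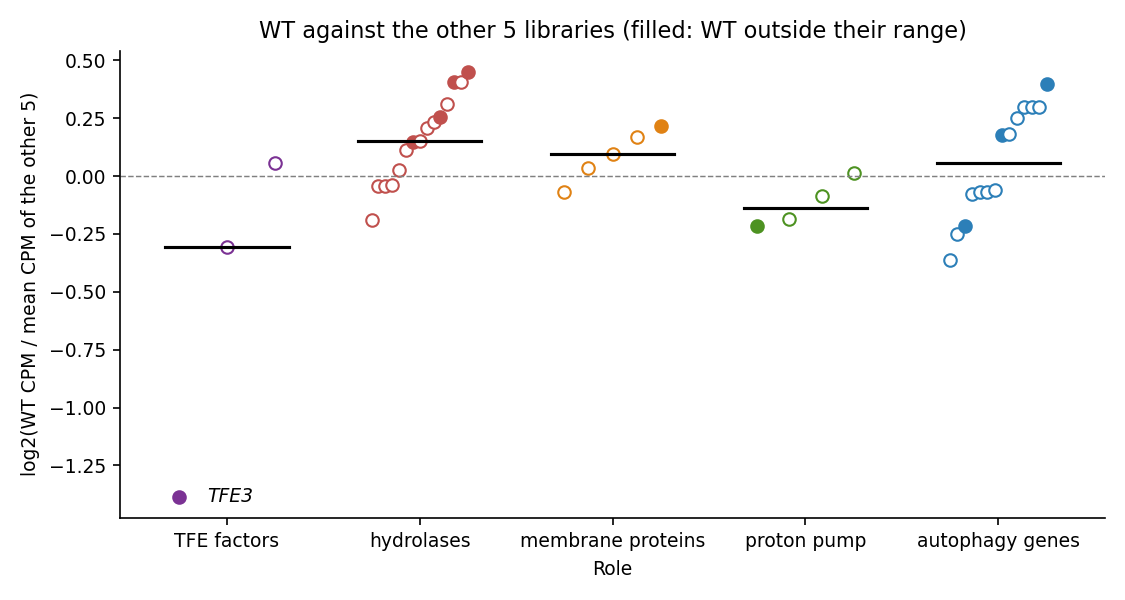
Log2 ratio of WT to the mean of the other 5 libraries, 1 point per gene by role. TFE3 stands apart at -1.38, and every other tested gene lies between -0.36 (SQSTM1) and 0.45 (CTSB).

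The library siRIPK2_4 was the lowest of the 6 for 13 of 41 members, beside 16.9% of all genes. They were TPP1, CTSA, CTSD, NEU1, PSAP and LIPA among 15 hydrolases, LAMP1, SCARB2 and MCOLN1 among 5 membrane proteins, ATP6V1A of the pump, and ULK1, ATG5 and ATG16L1 of the autophagy genes. TPP1, LIPA and SCARB2 lay furthest below the other libraries, ranking 18th, 174th and 555th lowest of 10674 genes. Of 34 further hydrolases that are not members, only 3 were lowest in this library (8.82%). Of 41 further autophagy genes 13 were (31.7%). Its total count, 37243009, lay within the range of the others. The summed levels of the 7 endothelial, 7 epithelial and 11 macrophage and microglia markers were also lowest in siRIPK2_4, at 10.2, 4.35 and 2.72 CPM. The other 5 libraries had 17.1 to 22.3, 6.38 to 10.1 and 3.37 to 6.95 CPM. The sum of the 9 astrocyte and glioma markers was not lowest there, at 7799 CPM against 4347 to 8207 in the other 5. The part of these marker levels in the values of the members was not tested.

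Further genes of the pathway gave the same absence of calls. None of 34 other hydrolases, 25 other membrane and sorting proteins, 13 other pump subunits, 41 other autophagy genes and 24 regulators of mTORC1 and the TFE factors passed the edgeR threshold. At an unadjusted p under 0.05 there were 2, 1, 0, 2 and 2 of them, 7 of 137 together, which is close to the 4.77% of all genes, so the genes named next describe these lists and do not set them apart. The 34 hydrolases had a median log2 fold change from siNC of -0.18 (21 lower) and the 41 autophagy genes of -0.04 (23 lower), beside -0.30 and -0.06 for the members of those groups. The amino acid transporter SLC36A1, which senses amino acids for mTORC1 at the lysosome, was 29.9 CPM in WT, 53.0 in siNC and 22.0, 11.4, 13.2 and 9.52 across siRIPK2_1 to siRIPK2_4. All 4 siRIPK2 libraries were below both controls (log2 fold change from siNC -1.92, SE 0.43, unadjusted p = 0.00224 and adjusted p = 0.972 by edgeR). RB1CC1 (FIP200), a scaffold of the ULK1 complex, was 55.3 CPM in WT, 25.7 in siNC and 48.1, 64.3, 54.6 and 50.2 across siRIPK2_1 to siRIPK2_4, with siNC alone low as for TAX1BP1 and BECN1 (log2 fold change 1.08, unadjusted p = 0.0121). The phospholipase PLA2G15 had the same form, at 65.6 CPM in WT, 30.05 in siNC and 47.5 to 65.8 in the siRIPK2 libraries. BNIP3, a mitophagy receptor induced by hypoxia, was 241 CPM in WT, 537 in siNC and 360, 216, 170 and 135 across siRIPK2_1 to siRIPK2_4, so that siNC alone was high and WT lay inside the siRIPK2 range. The cysteine protease CTSS was also high in siNC alone, at 5.89 CPM against 2.78 in WT and 2.30 to 2.83 in the siRIPK2 libraries.

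The sources used here do not give the strand setting or the handling of multiply mapped reads. Exons of 12 members overlap another listed gene (CTSA, CTSD, HEXA, LIPA, MCOLN1, BECN1, ATG7, MAP1LC3B, SQSTM1, WIPI1, OPTN and TAX1BP1), and GUSB, CTSL, MAP1LC3B and GABARAPL1 have near copies, so their counts are uncertain to that extent. Without the overlapping members the difference of hydrolases minus autophagy genes was -0.19 in siRIPK2 against siNC and 0.21 in WT against the rest.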

How the data were processed

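RNA was sequenced from 6 libraries of the U118 line. The deposited table holds the authors' raw, unnormalised counts for each Ensembl ID. The build was GRCh38 and the tools were HISAT2, FastQC, Trimmomatic and bedtools, per the submitters' processing notes. The sources used here give neither their versions nor the annotation release or strand setting. Symbols were matched for 20148 of 20263 IDs, and 20224 were in GENCODE release 29, the source of coordinates and exon lengths. RefSeq promoter windows (GRCh38.p14) were matched by symbol.

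These counts went into edgeR 4.0.16 (R 4.3.3, TMM, filterByExpr at a minimum of 10 counts, quasi-likelihood F test, Benjamini-Hochberg adjustment, threshold 0.05) in 1 fit with 3 groups. The siRIPK2 libraries supply all 3 residual degrees of freedom, so WT and siNC, with 1 library each, are assumed to vary as those do. Total counts per library were 33540619 to 45309423. The fit was tested on simulated data. Pairs of libraries differed far beyond sampling noise (chi-square per degree of freedom 77.1 to 223.6), and all were kept. DESeq2 1.42.0, limma-voom (limma 3.58.1), RLE and total-count scaling, no filter and each siRIPK2 library left out were alternatives.

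The members and lists were chosen with earlier results of these data known. Named are RIPK2, the members (values per library for the 3 TFE factors, TPP1, up to 4 per role with WT outside the other 5 and up to 3 per role with the lowest p) and, of each other list, up to 3 genes of at least 1 CPM with the lowest p and up to 2 with the most extreme WT ratio. Other members and CTSZ are named by role. Lists of astrocyte and glioma, macrophage and microglia, epithelial and endothelial markers were checked. The 7 epithelial markers summed to 6.38 CPM in WT, 6.55 in siNC and 4.35 to 10.1 in the siRIPK2 libraries, and the 7 endothelial markers to 18.1, 22.3 and 10.2 to 19.9. The 9 astrocyte and glioma markers summed to 7094 CPM in WT, 8207 in siNC and 4347 to 7799 in the siRIPK2 libraries.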

Additional observations from a re-analysis of the deposited data

Results flagged for a closer look

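The CTSB level in siRIPK2_2 was 1000.3 CPM, away from the 837 to 857 CPM of the other siRIPK2 libraries by 0.877 of the group's range. The BECN1 level in siRIPK2_3 was 63.1 CPM, away from the 44.7 to 47.2 CPM of the others by 0.866 of the range. Both exceeded Dixon's critical value for 4 samples. The high and low ends of 42 genes were examined, 84 in all, and chance flags about 1 in 20 groups. TPP1 in siRIPK2_4 did not pass this criterion, with a gap of 0.701 of the range.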

How the results depend on the processing

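Of 516 values recomputed for 65 results under alternatives, 505 counted as kept, 7 moved further and 4 were member fold changes against siNC that changed sign. A member fold change counted as kept if its sign and side of the threshold held. Medians and WT ratios did so if they moved by less than the spread between libraries, and counts if they stayed within a set fold. The lowest adjusted p of a member was 0.9999 by edgeR, so a change of side was unlikely from the start. LIPA counted as kept while it ran from -1.09 to -0.39. DESeq2 called 74 genes in siRIPK2 against siNC where edgeR called 0. The number of members lowest in WT was 3, was 1 with total-count scaling, and ran from 4 to 5 when a siRIPK2 library was left out. Leaving out a library that WT is set against can only keep or raise this number. The 4 member fold changes that changed sign did so when 1 siRIPK2 library was left out: TPP1 ran from -0.58 to 0.011, TFEB from -0.56 to 0.080, SQSTM1 from -0.21 to 0.047 and ATP6V1A from -0.041 to 0.18. TPP1 changed sign without siRIPK2_4, TFEB and SQSTM1 without siRIPK2_3, and ATP6V1A without siRIPK2_2. Counting values without a test as well, 13 alternative values of 9 results had the opposite sign, 10 of them from leaving out a siRIPK2 library. The pump median against siNC ran from -0.084 to 0.094 across leave-outs and was -0.0024 in a fit without WT and -0.021 with limma-voom. WT ratios of TFEB (-0.11 to 0.34), BECN1 (-0.096 to 0.049) and CTSA (-0.041 to 0.041) crossed 0 across leave-outs, and that of MCOLN1 was 0.038 without siNC. TFE3 against siNC was 0.035 without siRIPK2_3, and MITF was 0.40 without siRIPK2_2. The median of hydrolases minus autophagy genes ran from -0.30 to -0.19 in siRIPK2 against siNC when a siRIPK2 library was left out. The count of members lowest in siRIPK2_4 under other scalings (13 to 15) and the WT difference of medians without siNC (0.07) were chosen after seeing the data. No paired analysis was possible because WT and siNC have 1 library each and no replicate numbers shared with siRIPK2. With 1 library per control, neither could be left out of its own contrast.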

Other observations

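Among proton pump genes outside the 42, 12 of 13 were lower in WT than the mean of the other 5 libraries. Their median log2 ratio was -0.10, and 7325 of the 14306 genes tested were lower in WT. Lower too were 3 of the 4 pump members (median -0.14). The largest difference among those outside the 42 was in ATP6V1G1, a stalk subunit. It was 86.1 CPM in WT, 79.0 in siNC and 112 to 140 in the siRIPK2 libraries. Of the 41 further autophagy genes 29 were higher in WT (median 0.10), beside 48.8% of all genes tested. LAMTOR1, which anchors the Ragulator complex to the lysosome, was highest in WT at 137 CPM, against 120 in siNC and 61.1 to 91.3 in the siRIPK2 libraries. GPNMB, a lysosomal glycoprotein, was highest in WT at 440 CPM, against 286 in siNC and 217 to 385 in the siRIPK2 libraries. GM2A, the activator of ganglioside GM2 breakdown, was 57.9 CPM in WT, 39.7 in siNC and 16.9, 13.9, 51.7 and 30.9 across siRIPK2_1 to siRIPK2_4. These WT values have no test. Among regulators of mTORC1 and the TFE factors, 7 of 20 with a promoter window held CACGTG (35%), beside 12.2% of all tested genes with a window. Among further hydrolases 6 of 24 did (25%), among further membrane and sorting proteins 6 of 22 (27.3%) and among further pump subunits 2 of 10 (20%). Further autophagy genes, with 4 of 35 (11.4%), were near the share of all tested genes.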
